A study of Sus scrofa with 8 samples.

Results

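Expression of PPARGC1A, PPARA, SIRT3 and KLF15, regulators of how the heart burns fuel, was followed in the left ventricle of infarcted pigs. They are 4 of the 6765 genes that probe sets with a single symbol name on these arrays. All probe sets whose only symbol in the platform annotation is 1 of these 4 were taken, which gave 5 probe sets: 1 each for PPARGC1A, SIRT3 and KLF15, and 2 for PPARA. The genes were picked with earlier results from these same arrays in view, among them values of the high-dose animals. For these genes every comparison that involves the high dose is therefore a description without a test, and only low dose against untreated is tested. Which comparison led to their choice is not recorded, so low-dose and untreated values may have been in view too, and the intervals and p-values of that test are not independent of the choice.

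The arrays are Affymetrix porcine genome arrays, 1 for each of 8 castrated male Yorkshire pigs under 1 year old, all of which had had a myocardial infarction. The muscle came from the left ventricle at a distance from the infarct. GGF2 (glial growth factor 2) is a form of neuregulin-1, a growth factor that reaches cardiac muscle cells through ERBB receptors. The 3 untreated pigs got none, 3 low-dose pigs got 0.67 mg/kg at each infusion and 2 high-dose pigs got 2.0 mg/kg, both for 4 weeks; no uninfarcted animal is among the groups, so infarction is shared by all of them.

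PGC-1 alpha, the product of PPARGC1A, does not bind DNA itself. It docks on nuclear receptors and other transcription factors and raises the output of genes for mitochondria and fatty acid oxidation. PPAR alpha is one such receptor: it is switched on by fatty acids, pairs with a retinoid X receptor and drives genes of fatty acid uptake and oxidation. SIRT3 is the main protein deacetylase of mitochondria and acts on enzymes of oxidation and of peroxide defence. KLF15 is a zinc finger transcription factor that glucocorticoids induce; in heart it is known for control of branched-chain amino acid and lipid use and for restraint of hypertrophy.

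Levels are RMA values in log2 units, so a difference of 1 is a factor of 2. Array medians lay between 5.34 and 5.39 and lower quartiles between 3.72 and 3.80; values below the lower quartile were taken as close to background. Correlations between arrays across probe sets ran from 0.981 to 0.994. The 11 measured cardiomyocyte markers averaged 13.81 to 13.94 on the 8 arrays, with overlapping ranges in the 3 groups. The mean gap between 3' and 5' actin and GAPDH control probe sets, a sign of RNA integrity, was 2.35 to 2.82 in untreated, 2.60 to 3.02 in low-dose and 2.38 to 2.47 in high-dose animals. On 1 actin pair it was 4.88 to 5.26 in untreated, 5.48 to 6.04 in low-dose and 4.92 to 5.18 in high-dose animals. Untreated and low-dose gaps thus did not overlap on that pair, but overlapped on each of the other pairs. The part of this gap in the member values was not tested. No member passed in the tested comparison, where 0 of 23999 probe sets had a limma adjusted p under 0.05 (0%) and 1081 (4.50%) an unadjusted p under 0.05.

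PPARGC1A was bright and stood highest in both high-dose animals. Its probe set measured 9.38, 9.87 and 9.06 in the untreated animals. The low-dose animals measured 9.15, 9.14 and 9.54, and the high-dose animals 10.63 and 10.40. Untreated and low-dose values overlapped, while the lower of the high-dose values lay 0.53 above the highest untreated one and 0.86 above the highest low-dose one. Group means were 9.44 ± 0.41 (SD, n = 3), 9.28 ± 0.22 (n = 3) and 10.52 ± 0.17 (n = 2). The high-dose mean was above the untreated mean by 1.08 ± 0.23 (SE), or 2.11-fold, and above the low-dose mean by 1.24 ± 0.23, or 2.36-fold. In the tested comparison, low dose against untreated, the difference was -0.16 ± 0.21 (95% interval -0.64 to 0.32; limma adjusted p = 0.998). The order of the groups was thus low dose, untreated, high dose, and the first 2 did not differ beyond their spread.

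PPARA, whose product is a partner of PGC-1 alpha, was dim on 1 probe set and below the lower quartile on the other, so its values carry little information on size. On the brighter probe set the untreated animals measured 3.82, 4.15 and 3.83, the low-dose animals 3.55, 3.86 and 3.80, and the high-dose animals 4.13 and 4.62. That probe set lay above the array's lower quartile on 7 of 8 arrays, and 28.9% of all probe sets were dimmer. The high-dose values overlapped the untreated ones and lay 0.27 above the highest low-dose one. Means were 3.93 ± 0.19, 3.74 ± 0.16 and 4.37 ± 0.35 (SD; n = 3, 3 and 2), so the high-dose mean was higher than the untreated mean by 0.44 ± 0.18 (SE). That value depended on which high-dose animal was kept: it was 0.69 without high-dose replicate 1 and 0.19 without high-dose replicate 2. Low dose minus untreated was -0.20 ± 0.17 (95% interval -0.57 to 0.18; limma adjusted p = 0.998).

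The second PPARA probe set stayed between 2.55 and 3.08, below the lower quartile on every array. Its difference at the high dose was -0.10 ± 0.15 (SE), opposite in sign to that of the brighter probe set. With the mean of both probe sets in place of the brighter one, PPARA at the high dose was above untreated by 0.17. No direction can be given for PPARA from these arrays.

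SIRT3 was the one member whose 3 groups did not overlap anywhere. Its probe set measured 7.97, 7.88 and 7.81 in untreated animals, 8.34, 8.31 and 8.12 at the low dose, and 8.67 and 8.49 at the high dose. The gap between the nearest animals was 0.15 from untreated to low dose and again 0.15 from low to high dose. Of all probe sets, 0.229% (55 of 23999) showed the same order of untreated, low and high dose with no overlap; since high-dose values were in view when SIRT3 was picked, nothing is read from that share. Means were 7.89 ± 0.08, 8.26 ± 0.12 and 8.58 ± 0.13 (SD; n = 3, 3 and 2).

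At the low dose SIRT3 was above untreated by 0.37 ± 0.11 (SE), or 1.29-fold, with a 95% interval of 0.12 to 0.63. All 3 low-dose animals were above all 3 untreated ones, as was the case for 5.23% of probe sets. It had an unadjusted p under 0.05, as had 4.50% of probe sets, and missed the threshold after adjustment (limma adjusted p = 0.998). Since SIRT3 may have been picked with these values in view, nothing is read from that share. Leaving out any 1 array gave 0.33 to 0.44. At the high dose SIRT3 was above untreated by 0.69 ± 0.13, or 1.62-fold, and above low dose by 0.32 ± 0.13. These values varied little between animals of a group, with SDs of 0.08 to 0.13 against 0.24 to 0.61 for KLF15.

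**Figure D1:**
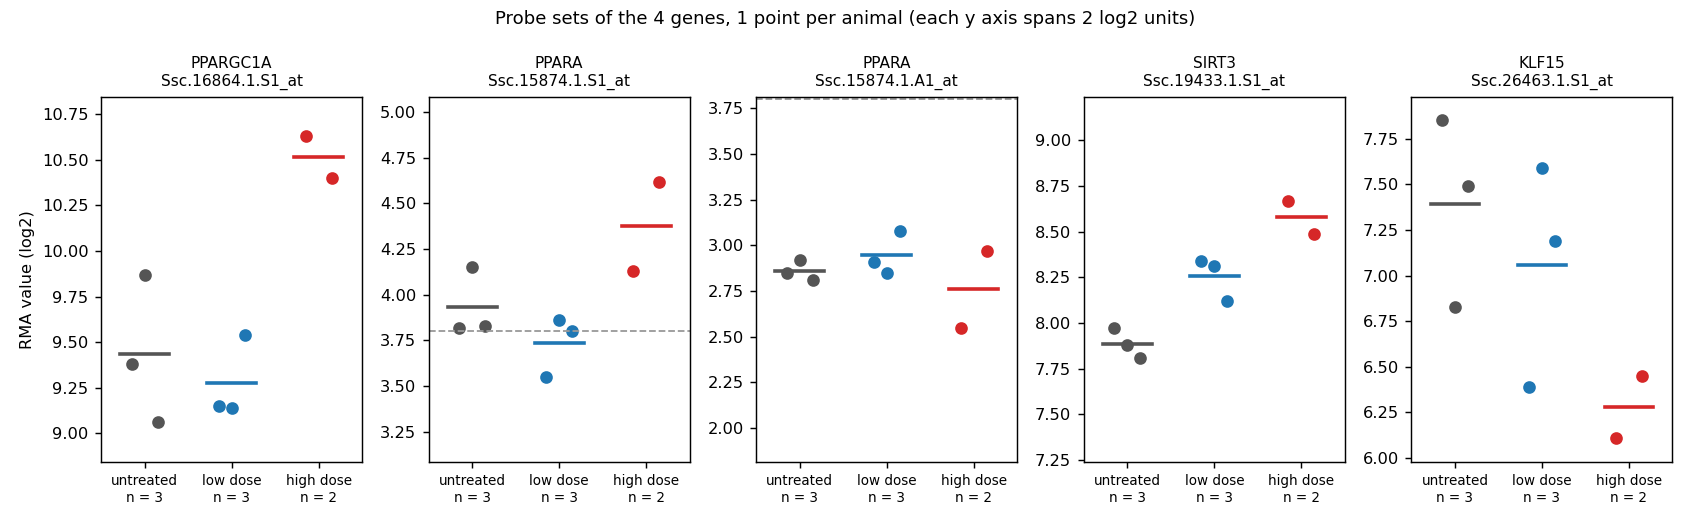
RMA values (log2, y axis) of the 5 probe sets by treatment group (x axis), 1 point per animal, with the group mean as a bar and the highest lower quartile of the arrays, 3.80, as a dashed line where it falls in range. PPARGC1A is highest in the 2 high-dose animals, and SIRT3 steps up from group to group without overlap. KLF15 is lowest at the high dose with wide scatter in the other groups. The second PPARA probe set lies below the dashed line, and the brighter one runs from 3.55, below it, to 4.62, above it.

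KLF15 went the other way from PPARGC1A and SIRT3. On its probe set the untreated animals measured 7.85, 6.83 and 7.49. The low-dose animals were at 6.39, 7.59 and 7.19, and the high-dose animals at 6.11 and 6.45. Both high-dose values lay below all untreated ones, the nearest by 0.38, but low-dose replicate 1 fell between them. Means were 7.39 ± 0.52, 7.06 ± 0.61 and 6.28 ± 0.24 (SD; n = 3, 3 and 2). The high-dose mean differed from the untreated one by -1.11 ± 0.38 (SE), a level 2.16-fold lower, and from the low-dose one by -0.78 ± 0.38, or -0.51 without low-dose replicate 2. Low dose minus untreated was -0.33 ± 0.34 (95% interval -1.10 to 0.44; limma adjusted p = 0.998), and it was 0.00 without low-dose replicate 1. The groups ran from untreated over low dose to high dose, and neighbours in that order overlapped.

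**Figure D2:**
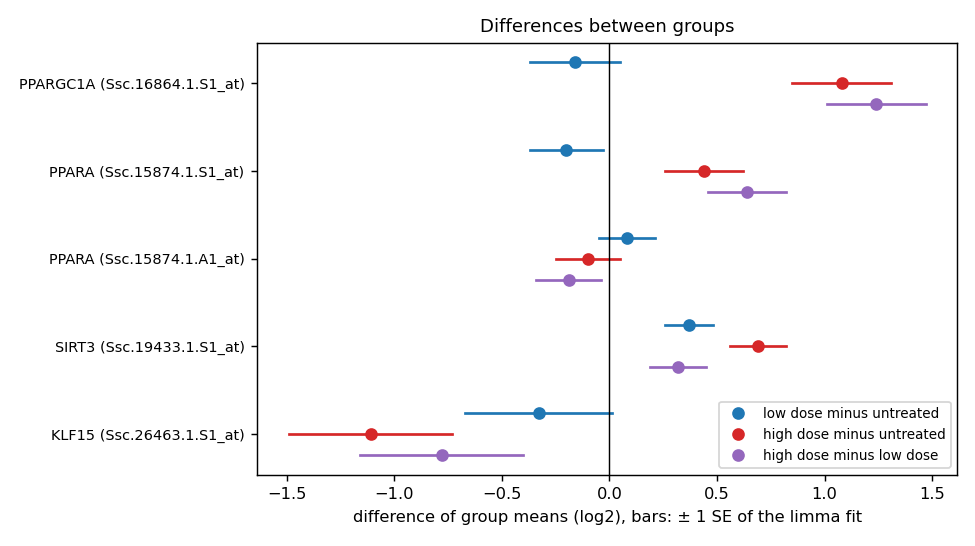
Differences of group means (log2, x axis) with bars of 1 SE for the 5 probe sets (y axis), for low dose minus untreated, high dose minus untreated and high dose minus low dose. PPARGC1A, at 1.08, and SIRT3, at 0.69, lie to the right for high dose minus untreated and KLF15, at -1.11, to the left; of the low-dose differences, that of SIRT3 alone, at 0.37, lies more than 2 SE from 0.

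With the brightest probe set of each gene, 2 of the 4 genes had both high-dose animals above all untreated ones, against 14.7% of all probe sets, and 1 had both below, against 12.0%. Against the low-dose animals 3 of the 4 were higher without overlap, the dim PPARA among them, as were 13.2% of all probe sets. The members were picked with these values in view, so nothing is read from these counts. For the mean of both doses against untreated, the differences were 0.46 ± 0.19 for PPARGC1A, 0.53 ± 0.10 for SIRT3 and -0.72 ± 0.30 for KLF15 (SE). The PPARGC1A value was 0.27 without untreated replicate 3, and 0.71 without both untreated replicate 2 and low-dose replicate 1. Only for SIRT3 did both doses contribute in 1 direction with no overlap. PPARA on its brighter probe set was at 0.12 ± 0.15, and at 0.00 and 0.25 without the second and the first high-dose animal.

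Immediate early genes, whose transcription starts minutes after a stimulus, varied more between these animals than any member did. The mean of the 11 measured ones, each centred over the 8 arrays, was -1.25, 0.49 and -1.28 in the untreated animals. It was 0.53, -1.41 and 0.12 at the low dose and 1.58 and 1.22 at the high dose, so the high-dose animals were highest. In each of the 3 groups the animal with the highest immediate early mean had the lowest KLF15: untreated replicate 2, low-dose replicate 1 and high-dose replicate 1. For PPARGC1A that animal had the highest value in 2 of the 3 groups, untreated and high dose, and for SIRT3 in 2, the low and the high dose.

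With this mean entered as a covariate, in a fit added after the data were seen, KLF15 at the high dose differed from untreated by -0.06 ± 0.29 (SE) in place of -1.11. PPARGC1A was above untreated by 0.61 ± 0.29 in place of 1.08, and by 0.17 ± 0.20 in place of 0.46 for the mean of both doses. SIRT3 kept its size, at 0.71 ± 0.20 against 0.69, and its low-dose difference was 0.37 ± 0.12. PPARA on its brighter probe set was at 0.42 ± 0.29. The high-dose animals, at 1.58 and 1.22, were also the highest in the covariate, and no other animal was above 0.53. The adjusted values at the high dose thus extend a slope within groups beyond any range that the groups share. Dose and immediate early level cannot be told apart with 2 such animals.

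**Figure D3:**
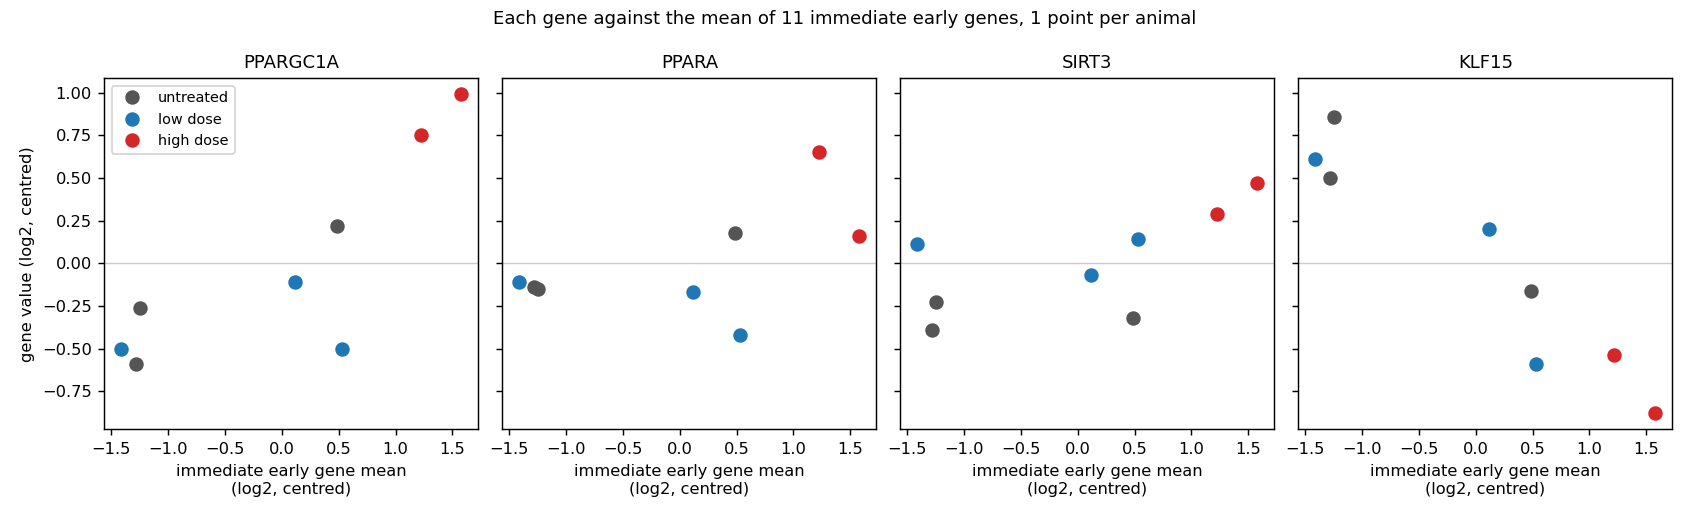
Value of each gene on its brightest probe set (log2, centred on its mean over the 8 arrays, y axis) against the centred mean of 11 immediate early genes (log2, x axis), 1 point per animal, coloured by group. KLF15 lies lower towards the right, PPARGC1A is highest at the right end where the 2 high-dose animals lie at 1.22 and 1.58, and SIRT3 is ordered by group more than by position along the x axis.

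Markers of some other cells differed between the groups as well. At the low dose the 4 measured mesothelial markers averaged 4.97 to 5.25, against 4.31 to 4.57 in untreated and 4.56 to 4.90 in high-dose animals, with 1 of the 4 below the lower quartile. The keratin KRT8, 1 of them, was above untreated by 2.21 ± 0.28 (SE; limma adjusted p = 0.795) at the low dose. The other mesothelial markers were dim, with group means from 3.55 to 4.58. Their low-dose differences were 0.45 ± 0.16 for KRT19, 0.18 ± 0.15 for KRT18 and -0.11 ± 0.14 for WT1 (SE). The mesothelial mean thus rested mostly on KRT8. Like SIRT3, that mean separated low-dose from untreated animals without overlap, but unlike SIRT3 it was lower again at the high dose. The 6 measured macrophage markers averaged 7.03 to 7.58 in untreated, 7.06 to 7.75 in low-dose and 6.47 to 6.53 in high-dose animals, and all 6 were lower in both high-dose animals than in any untreated one, against 12.0% of all probe sets. The 7 fibroblast markers averaged 8.14 to 8.86 in untreated, 8.45 to 8.64 in low-dose and 7.83 to 8.17 in high-dose animals. Untreated and high-dose ranges thus overlapped. At the high dose 2 fibroblast markers were higher and 5 lower than untreated, from POSTN at -2.45 ± 0.33 (SE) to COL3A1 at 0.83 ± 0.38. The 6 endothelial markers averaged 7.54 to 7.60, 7.19 to 7.72 and 7.08 to 7.41 in the same order of groups. None of the macrophage or fibroblast markers and 1 endothelial marker had a mean below the lower quartile. In whole tissue, fewer cells of a type and less RNA per cell cannot be told apart, and the part of these shifts in the values of PPARGC1A, SIRT3 and KLF15 was not tested. Cardiomyocyte markers had a median difference of 0.03 at the high dose. Adipocyte markers, whose cells also make PPAR and KLF15 transcripts, averaged 6.48 to 7.09 in untreated, 6.40 to 6.76 in low-dose and 6.41 to 6.68 in high-dose animals over 4 genes. The 2 high-dose pigs carry neighbouring tag numbers in the labels, so anything else they share cannot be told apart from the dose. Untreated replicates 1 and 3 carry neighbouring numbers too, and so do untreated replicate 2 and low-dose replicate 1. Their immediate early means were -1.25 and -1.28 in the untreated pair and 0.49 and 0.53 in the pair across groups. KLF15 was at 7.85 and 7.49, and at 6.83 and 6.39. In the pair across groups PPARGC1A was at 9.87 and 9.15 and SIRT3 at 7.88 and 8.34. What such pairs share was not tested.

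Partners of the members were looked at next, from lists drawn up for this purpose with earlier results known, and with the brightest probe set of each gene. These genes are not members, and the fit's calls are given for all comparisons. Shares of all probe sets set beside list counts also cover dim probe sets and those with no symbol. They are therefore not a like measure, and nothing is read from them. No gene of the 9 lists passed in either direction at the low dose, the high dose or between doses, where 0%, 0% and 0.0250% of all probe sets passed. The nearest was MYOCD, with a limma adjusted p = 0.0505 at the high dose and 0.0591 between doses. Since earlier results were known when the lists were drawn up, these p-values are not independent of that choice, and nothing is read from them. Counts of passing probe sets at the high dose changed with the settings, as given under the dependence on processing. Over all 6765 named genes, 53.8% were higher at the high dose than in untreated animals, with a median difference of 0.02. Of 18 measured receptors and coactivators that work with PGC-1 alpha and PPAR alpha, 13 were higher and 5 lower, with a median of 0.09. The delta form of the PPAR receptor, PPARD, was at 0.18 ± 0.12 (SE), the gamma form, PPARG, at -0.34 ± 0.19 with a dim high-dose mean of 3.65, and the retinoid X receptor RXRA at 0.01 ± 0.16. Lipin-1 (LPIN1), a phosphatase that also coactivates PPAR alpha, was above untreated by 0.47 ± 0.21 at the low dose, with -0.25 ± 0.24 in the high-dose group; a second probe set, almost as bright, had 0.21 and -0.16. Of 16 repressors and enzymes that modify PGC-1 alpha, 10 were higher and 6 lower, with a median of 0.05; the AMP kinase subunit PRKAA2 was at 0.19 and NAMPT, which makes the NAD that sirtuins use, at -0.13. PPARGC1B, ESRRA, ESRRG, NRF1, NRIP1 and SIRT1 had no probe set with that single symbol and are not analysed here.

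PPAR alpha target genes were mostly above untreated at the high dose: 22 of 30 were higher, with a median of 0.17, and 11 had both high-dose animals above all untreated ones, against 14.7% of all probe sets. Both high-dose animals were below all untreated ones for 2 of the 30, against 12.0%: TXNIP, an inhibitor of thioredoxin, at -0.65 and the fatty acid transporter SLC27A6 at -0.68, named after their values were seen. At the low dose 15 were higher and 15 lower, with a median of -0.01. PDK4, which turns the heart away from glucose, was above untreated by 0.82 ± 0.41 in low-dose and 0.81 ± 0.46 in high-dose animals (SE), and by 0.97 and 0.92 on its less bright probe set. The carnitine transferase of muscle, CPT1B, was at 0.41 ± 0.18 at the high dose, while CPT1A, its liver form, was at -0.36 ± 0.34. The fatty acid carrier FABP3 was at 0.37 ± 0.13, the acyl-CoA synthetase ACSL1 at 0.36 ± 0.16, the oxidation enzyme HADHA at 0.26 ± 0.15 and the uncoupling protein UCP3 at 0.30 ± 0.18. ACADM, the medium-chain dehydrogenase, was at -0.01 ± 0.17. The lipid droplet protein PLIN2 varied most, at 8.06 ± 2.39 in untreated (SD, n = 3) and 9.92 ± 0.26 in high-dose animals (n = 2). ANGPTL4, an inhibitor of lipoprotein lipase, differed by 1.16 ± 0.63 in low-dose and 0.66 ± 0.70 in high-dose animals (SE).

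Genes of mitochondrial biogenesis and respiration, the classical targets of PGC-1 alpha, differed little: all 17 measured were higher at the high dose, yet the median was 0.06 and the highest 0.32. The mitochondrial transcription factor TFAM was at 0.04 ± 0.12 (SE), cytochrome c (CYCS) at 0.03 ± 0.16, the ATP synthase chain ATP5B at 0.06 ± 0.11 and the ADP/ATP carrier SLC25A4 at 0.08 ± 0.11. SDHB, an iron-sulphur subunit of complex II, had 0.32 ± 0.13 on its brightest probe set and -0.29 on another. At the low dose 7 of the 17 were higher, with a median of -0.02.

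Genes for proteins that SIRT3 deacetylates had a median difference in transcript level of 0.10 at the high dose, with 15 of 18 higher. At the low dose the median was -0.05, with 7 of 18 higher. Some of these genes, such as HADHA and SDHA, also stand in the PPAR alpha or the mitochondrial list. The superoxide dismutase SOD2 was at 0.03 ± 0.15 (SE) at the high dose, the isocitrate dehydrogenase IDH2 at 0.12 ± 0.12, the malate dehydrogenase MDH2 at 0.10 ± 0.12 and cyclophilin D (PPIF) at 0.16 ± 0.18. The aldehyde dehydrogenase ALDH2 was at -0.57 ± 0.28. Of the other sirtuins, SIRT2, mostly a cytoplasmic enzyme, was at 0.34 ± 0.13 at the high dose and 0.01 ± 0.12 at the low dose. SIRT5, in mitochondria, was at -0.09 ± 0.14 and SIRT6, in the nucleus, at -0.07 ± 0.11 at the high dose. Like SIRT3, SIRT2 had both high-dose animals above all untreated ones, as had 14.7% of all probe sets. For SIRT5 and SIRT6 the high-dose and untreated values overlapped.

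Branched-chain amino acid breakdown is a pathway that KLF15 is known to switch on. At the high dose, where KLF15 was lower, 14 of its 17 measured genes were higher than untreated, with a median of 0.27, and 9 had both high-dose animals above all untreated ones, against 14.7% of all probe sets. All 17 were higher at the high than at the low dose, with a median of 0.35, where 54.1% of all named genes were higher. The dehydrogenase chains BCKDHA and BCKDHB were at 0.59 ± 0.17 and 0.30 ± 0.19 against untreated (SE), the transaminase BCAT2 at 0.26 ± 0.13, the inhibitory kinase BCKDK at 0.31 ± 0.18 and DBT at -0.02 ± 0.27. At the low dose 6 of 17 were higher, with a median of -0.09. Without high-dose replicate 1 the list's median at the high dose was 0.16.

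Other genes tied to KLF15 included the glucose transporter SLC2A4, at 0.02 ± 0.17 (SE) at the high dose, and KCNIP2, the channel subunit whose daily rhythm KLF15 sets, at 0.10 ± 0.19. Of 15 measured, 11 were higher, with a median of 0.10. The glucocorticoid-induced genes FKBP5 and TSC22D3 were at -0.36 ± 0.29 and -0.46 ± 0.28 and PER1 at 0.37 ± 0.18, and the glucocorticoid receptor NR3C1 was at 0.02 ± 0.36. Myocardin (MYOCD), a coactivator of serum response factor that KLF15 can hold back, was at 1.40 ± 0.16. Among 6 measured Krueppel-like factors, KLF4, itself an immediate early gene, was at 1.52 ± 0.39 and KLF10 at 1.04 ± 0.77. KLF9, another glucocorticoid-induced factor, was at -0.49 ± 0.31, and KLF2, dim with group means of 4.00 to 4.12, at 0.12 ± 0.15.

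**Figure D4:**
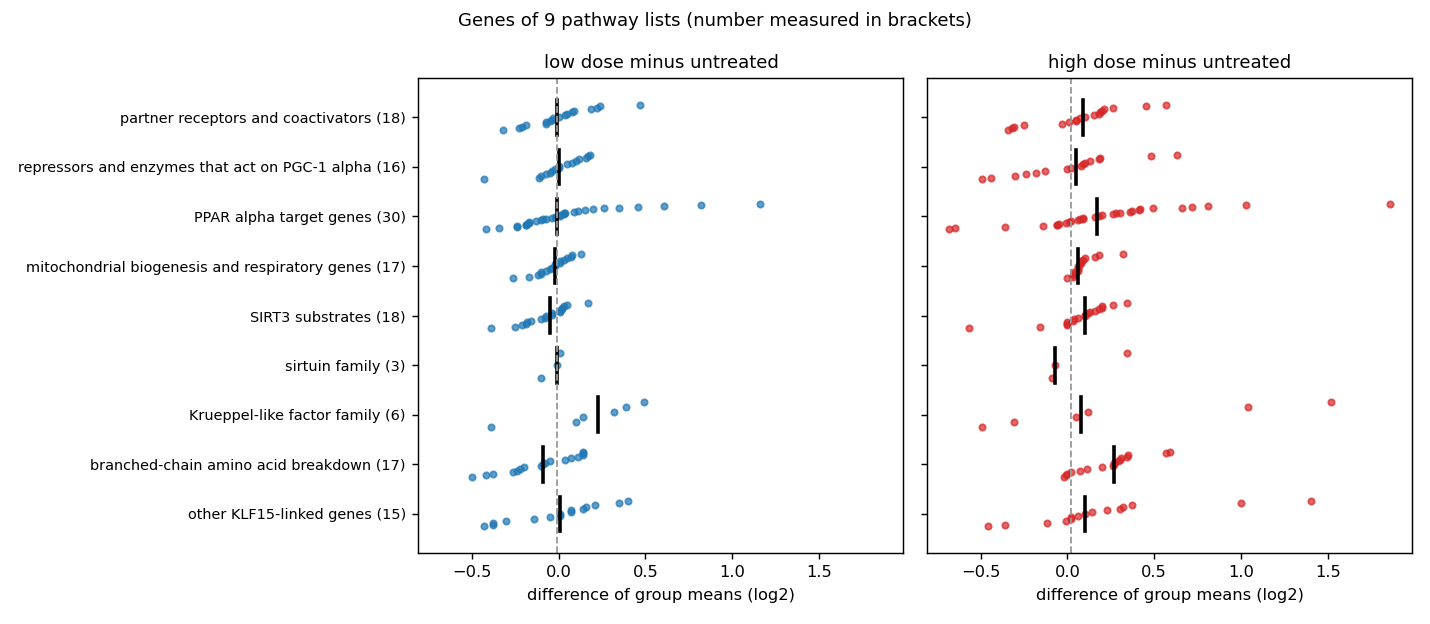
Differences of group means (log2, x axis) of the measured genes of 9 pathway lists (y axis), 1 point per gene, for low dose minus untreated and high dose minus untreated, with the list median as a black bar and the median of all named genes as a dashed line. Mitochondrial genes bunch near 0 with a median of 0.06 at the high dose, and branched-chain amino acid genes have medians of -0.09 at the low and 0.27 at the high dose.

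Genes with the most similar pattern over the 8 arrays were searched among 6600 probe sets with a single symbol and a mean of at least 5. Likeness was the root mean square difference between centred log2 profiles, computed for members that spanned at least 1 log2 unit. Nearest to PPARGC1A were YWHAZ, a 14-3-3 adaptor, at 0.18, UTP15 at 0.19 and the small GTPase RHOB at 0.21. KLF15 was nearest to the zinc finger gene ZNF382, at 0.15, and to FAM198B and EIF3M, both at 0.20, though the brightest EIF3M probe set was at -0.15 at the high dose against -0.79 on the probe set that was nearest. For PPARA, dim as it is, the nearest were RAB1A and C17H20orf27, both at 0.11, and NT5C3A at 0.12; the brightest C17H20orf27 probe set was at -0.44 at the high dose against 0.33 on the nearest one. SIRT3 spanned 0.86 and was not searched.

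PPARGC1A, SIRT3 and KLF15 kept their direction at the high dose whichever single array was left out. PPARGC1A stayed above untreated by 0.89 to 1.30, SIRT3 by 0.60 to 0.79, and KLF15 kept a difference of -1.39 to -0.88. Where 1 of the 2 high-dose animals was left out, the other was taken to vary like the rest. Untreated replicate 2 had the highest PPARGC1A and the lowest KLF15 of its group. Without it the low-dose difference of PPARGC1A was 0.06 in place of -0.16.

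**Figure D5:**
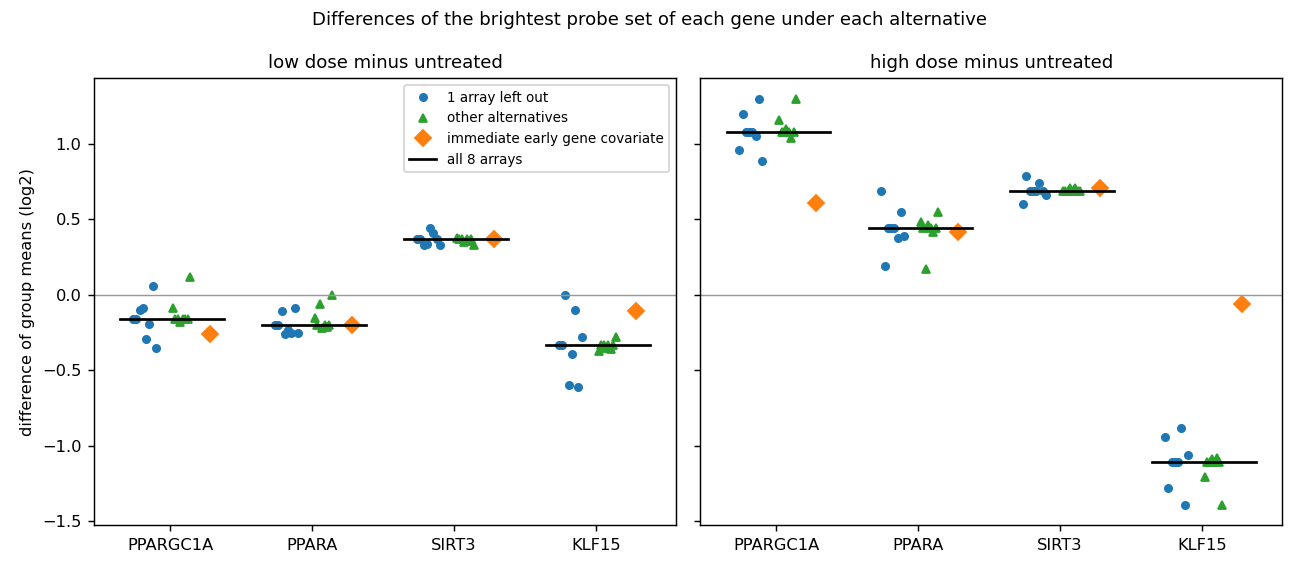
Differences of group means (log2, y axis) of the brightest probe set of each gene (x axis) with all 8 arrays (black bar), with 1 array left out (circles), under the other alternatives (triangles) and with the covariate for immediate early genes (diamonds), for low dose minus untreated and high dose minus untreated. At the high dose the diamond of KLF15 lies at -0.06 and that of PPARGC1A at 0.61, while that of SIRT3, at 0.71, lies by its bar.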

How the data were processed

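Each of the 8 arrays has deposited log2 values for 24123 probe sets, 1 column per animal. RMA and Partek 6.6 are named as tools per the submitters' processing notes; other settings of the authors are not given in the sources used. RMA makes array distributions alike, so a change shared by most genes would be removed, and arrays carry no read depth: their number limits the precision. After 124 control probe sets were left out, 23999 were tested. Symbols came from the platform annotation, where 10069 of these carry 1 symbol, 198 several and 13732 none.

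Groups follow the treatment in the labels, which name a different pig for each array; replicate numbers only follow sample order. limma 3.58.1 in R 4.3.3 fitted 1 mean per group to all arrays (5 residual and 3.50 prior degrees of freedom; two-sided; Benjamini-Hochberg over all probe sets; threshold 0.05). The fit was tested on simulated data. The members and the lists (9 pathway lists with 216 different genes, 134 measured, and 10 marker lists) were chosen with earlier results of these data known. Named genes are all member probe sets, the 3 genes nearest in pattern and list genes marked for naming, whatever their values. The marks belong to lists drawn up with earlier results known. TXNIP and SLC27A6 were named after their values were seen. Marker genes are named only beside a list summary. A gene's brightest probe set stands for it. No coordinates or sequences are given. Alternatives changed the variance prior (trend or robust), the normalization (median centring, a second quantile step), the probe sets (dim ones dropped, or a gene's probe sets averaged), the arrays in the fit (only the groups compared, array weights, arrays left out) and, added after the data were seen, a covariate for immediate early genes.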

Additional observations from a re-analysis of the deposited data

How the results depend on the processing

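Member differences kept their size within 1 SD between replicates, or in the tested comparison their direction and side of the threshold, in 317 of 336 recomputed values. No paired analysis was possible because the labels carry no replicate numbers. At the low dose PPARGC1A changed sign without untreated replicate 2 (0.06; range over single arrays left out -0.35 to 0.06) and without both animals whose tag numbers adjoin across groups, untreated replicate 2 and low-dose replicate 1 (0.12). Without those 2 animals PPARA was at 0.00, and without low-dose replicate 1 KLF15 was at 0.00 (range over single arrays -0.61 to 0.00). Limma adjusted p-values of the members at the low dose ran from 0.653 to 1.0 over all alternatives. With the immediate early covariate, PPARGC1A was above untreated by 0.61 and above low dose by 0.86. KLF15 was then at -0.06 against untreated, 0.05 against low dose and -0.09 for the mean of both doses. With the mean of its probe sets PPARA was at 0.17 for high dose minus untreated and 0.23 for high minus low dose, and leaving out 1 array gave 0.19 to 0.69 and 0.39 to 0.88. The cause of these shifts was not tested.

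How many probe sets passed varied with the settings, and these counts say nothing on which genes passed. For low dose against untreated, and for the mean of both doses, it was 0. It became 1 without the 2 neighbouring tag numbers across groups, untreated replicate 2 and low-dose replicate 1. For high dose against untreated it was 0 and became 4 with a variance trend, 7 with a robust prior, 3 with median centring, 9 with renewed quantile normalization, 2 with only the groups compared, 13 with array weights and 55 without the neighbouring tag numbers, with 0 to 19 when 1 array was left out. For high against low dose it was 6 and became 10 with array weights, 1 with dim probe sets left out, 0 with only the groups compared and 12 without the neighbouring tag numbers, with 0 to 7 when 1 array was left out. The filter on dim probe sets kept 3 of the 5 member probe sets, and both of PPARA were removed. Of the 3 genes nearest in pattern to each of 3 members, 2 remained with a minimum mean of 7. Of 198 recomputed list medians 188 stayed within 1 SD.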
